A study of Mus musculus with 12 samples.

Results

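CpG-dense hypomethylated regions (HMRs) that lie away from the starts of protein-coding genes were examined in sorted mouse β cells. The methylomes of both β-cell subtypes at both ages were deposited as 4 pools, and the HMRs of these pools were merged into 84472 autosomal regions. A region was kept where it was 200 bp to under 5 kb long, held at least 5 listed CpGs per 100 bp and at least 50 reads in each pool, and had its midpoint over 2 kb from every annotated start of a protein-coding transcript. Length and reads left 73958 regions, density left 8310, and distance left the 1331 members described here. Another 63 dense regions away from starts had under 50 reads in a pool and were not kept. The methylation levels themselves chose these members, since an HMR is a region called for its low methylation in at least one pool. That a member is low in some pool is therefore a description and no finding.

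All cells came from MNYI mice (Myt1cCre; Ngn3nCre; Rosa26eYFP, InsApple, the last written Ins2Apple in the study's methods), in which a split Cre joins only in islet progenitors that express both Myt1 and Ngn3, and then marks their progeny with eYFP for good, while Apple marks insulin-expressing cells. The eYFP+ cells descend from M+N+ progenitors and the eYFP- cells from M-N+ progenitors or from cells in which the reporter stayed off. The labels call the reporter eGFP and the cell type all islet cells. At postnatal day 2 (P2) there were 2 libraries for each subtype, and at postnatal day 60 (P60) there were 4, with female and male mice in separate libraries. At least 3 sorts, each of 4 to 7 mice, were joined per age and sex, so no value belongs to a single mouse. Nothing says that libraries of one age, sex and subtype came from separate mice, and p-values over libraries then measure only the spread between libraries, which may be technical. Read counts were given only for the 4 pools, and single libraries only as positions of their HMRs.

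A CpG island is a stretch where CpG dinucleotides have escaped the loss that methylated cytosine suffers over evolution, and most islands sit at gene promoters and stay unmethylated in every tissue. Islands away from annotated promoters, often called orphan islands, lie inside genes or between them, and many start noncoding transcripts or act as regulatory elements in some tissues only. De novo methyltransferases such as Dnmt3a add methylation during maturation, TET enzymes remove it, and proteins that bind unmethylated CpG, such as Kdm2b, keep islands open.

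The sequences below show what these regions look like, with each CpG in capitals. They were read from the plus strand of GRCm39 (mm39), and regions longer than 300 bases are shown by the 300 bases with the most CpGs. Notch1 and Ankrd60 name the nearest genes of members with the largest rises from P2 to P60. The window of the Cacna1a coding exon also rose, Zcchc14 had the largest fall, and Mir17hg stayed low in every pool.
Notch1 intron, chr2:26377776-26377994: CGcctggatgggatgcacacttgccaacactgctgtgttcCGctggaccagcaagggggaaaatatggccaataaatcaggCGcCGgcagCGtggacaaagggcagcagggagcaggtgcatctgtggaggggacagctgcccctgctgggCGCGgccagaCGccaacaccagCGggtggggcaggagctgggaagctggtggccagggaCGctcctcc
Island near Ankrd60, chr2:173428398-173428697: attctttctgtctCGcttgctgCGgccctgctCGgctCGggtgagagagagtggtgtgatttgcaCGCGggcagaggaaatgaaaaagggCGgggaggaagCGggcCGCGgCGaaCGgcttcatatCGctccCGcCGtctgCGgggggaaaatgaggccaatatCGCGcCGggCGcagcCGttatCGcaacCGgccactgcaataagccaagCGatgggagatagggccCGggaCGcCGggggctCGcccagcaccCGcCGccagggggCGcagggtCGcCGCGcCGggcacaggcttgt
Cacna1a coding exon, chr8:85285873-85286172: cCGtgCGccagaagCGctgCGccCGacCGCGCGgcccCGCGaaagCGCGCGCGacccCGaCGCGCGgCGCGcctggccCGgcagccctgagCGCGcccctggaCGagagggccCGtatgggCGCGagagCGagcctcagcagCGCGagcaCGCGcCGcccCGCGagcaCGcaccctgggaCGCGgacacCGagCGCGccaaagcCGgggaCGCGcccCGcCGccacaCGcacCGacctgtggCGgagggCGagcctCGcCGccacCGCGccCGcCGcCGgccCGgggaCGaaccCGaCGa
Intergenic region near Zcchc14, chr8:122387506-122387805: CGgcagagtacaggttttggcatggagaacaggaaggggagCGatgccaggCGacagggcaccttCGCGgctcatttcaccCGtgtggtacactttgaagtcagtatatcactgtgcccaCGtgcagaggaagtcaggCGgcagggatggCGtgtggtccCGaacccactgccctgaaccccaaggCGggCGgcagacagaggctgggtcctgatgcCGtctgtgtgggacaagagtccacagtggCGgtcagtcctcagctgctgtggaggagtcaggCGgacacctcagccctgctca
Mir17hg island, chr14:115279021-115279320: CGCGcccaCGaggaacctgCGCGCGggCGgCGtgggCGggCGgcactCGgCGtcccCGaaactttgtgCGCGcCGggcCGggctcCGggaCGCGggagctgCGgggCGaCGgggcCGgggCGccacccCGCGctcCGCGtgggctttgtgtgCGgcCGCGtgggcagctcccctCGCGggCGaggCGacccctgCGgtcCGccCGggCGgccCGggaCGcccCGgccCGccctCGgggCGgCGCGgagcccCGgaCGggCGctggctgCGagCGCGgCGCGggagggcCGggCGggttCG
The Mir17hg window holds 59 CpGs with a GC content of 84.3%, the Cacna1a window 61 CpGs at 81.0%, and the Ankrd60 window 35 CpGs at 67.3%. The other windows are far sparser, with 10 whole CpGs in the 219 bases of the Notch1 member and 15 in the Zcchc14 window.

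On average an autosomal CpG was read 25.2 times in the P2 eYFP- pool, 25.3 times in the P2 eYFP+ pool, and 45.7 and 45.4 times in the P60 pools. A member held a median of 967 and 933 reads in the P2 pools and of 2412 and 2306 in the P60 pools. Ranges in parentheses after a level are its 95% Wilson interval, which covers the counting of pooled reads and not the spread between mice. File name prefixes place all P2 libraries in one run, P60 replicates 1 and 2 in another and P60 replicates 3 and 4 in the third, so stage and run cannot be told apart. Of 254 X-linked HMRs present in every male and no female P60 library, the P2 eYFP- library labelled female held 92.5% and the one labelled male 13.4%, against 12.99% and 84.3% in the P2 eYFP+ libraries of the same labels. The sex labels of the P2 eYFP- libraries thus go against their X chromosomes. Each pool joins both sexes, and the members are autosomal. In 1 kb around gene starts, the β-cell genes Iapp, Slc2a2 and Mafa were between 0.323% and 7.79% methylated in the 4 pools. Slc30a8 was between 11.6% and 14.7%, and Ucn3 between 13.9% and 23.05%. Ins1, with 5 CpGs, was at 28.3% and 35.1% at P2 and at 7.87% and 5.74% at P60. Of the genes of other islet cells, Pyy was between 41.3% and 68.7%, Gcg between 54.6% and 62.3%, and Sst between 56.3% and 68.2%. Ghrl, Ppy and Ttr were between 67.3% and 87.3%. Of the acinar genes, Cpa1 and Ctrb1 were between 72.2% and 85.8%, Cela1 between 47.4% and 62.7%, and Prss1, with 1 CpG, between 38.5% and 62.5%. Of the blood and vessel genes, Col1a1 was lowest, between 30.3% and 38.3%, and the others were at 50.5% or more. The starts of the β-cell genes Ins2 and G6pc2 were between 69.0% and 85.0% methylated, and thus did not mark these cells as low.

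The members were short islands. Their median length was 670 bp with a range of 200 to 4876 bp, their median number of CpGs was 45, and their median GC content was 61.0%. CpG-dense HMRs at protein-coding starts, 6979 regions, had a similar CpG density (medians of 6.13 and 6.26 CpGs per 100 bp) but a median length of 1692 bp. CpG-sparse HMRs away from starts, 28894 regions with under 2 CpGs per 100 bp, had a median length of 590 bp and a median GC content of 44.9%. The ratio of observed to expected CpGs had a median of 0.698 in the members, 0.731 at starts and 0.242 in the sparse regions. The rule fixed CpG density and the limits of length, but not GC content.

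Annotation placed most members inside transcribed sequence. The midpoint lay in a long noncoding RNA (lncRNA) gene in 433 members, between genes in 300, in a protein-coding exon in 266, in an intron in 244, in a 3' UTR in 42 and in a 5' UTR in 6. Coding exons held 19.98% of the members but 0.519% of the CpG-sparse distal HMRs, and introns held 18.3% and 44.8%. A noncoding start lay within 2 kb of 598 members, and for 445 of these the nearest one belonged to an lncRNA. No start of any gene type lay within 2 kb of the other 733. The 566 members inside protein-coding genes fell into 515 genes, of which 40 held more than 1 member. Sptbn4, which encodes a spectrin of axons, held 5, and Exoc3l2 held 4.

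Methylation levels were low and skewed. The median level was 7.26% in the P2 eYFP- pool, 7.35% in the P2 eYFP+ pool, and 10.2% in either P60 pool. The same medians at protein-coding starts were 2.30%, 2.44%, 2.59% and 2.64%, and in the sparse distal regions 13.2%, 13.8%, 18.3% and 18.1%, so the members lay between these classes in each pool. Levels under 5% in all 4 pools were found in 298 members. None was between 35% and 65% in all 4 pools, and none exceeded 50% in a P2 pool. In both P60 pools, 59 members exceeded 50%. Members with a noncoding start within 2 kb had medians of 5.57% and 5.86% at P2 and of 7.55% and 7.45% at P60, while the 733 without one had 9.97%, 9.64%, 13.7% and 13.6%. In pooled DNA, a level between the extremes may come from a share of cells, of alleles or of CpGs, and these cannot be told apart.

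The members described next had the most CpGs among the 298 with levels under 5% in all 4 pools. The island in an intron of Unc45b, which encodes a myosin chaperone, spans 4612 bp with 508 CpGs and had levels of 3.53%, 3.10%, 4.56% and 4.63% in the P2 eYFP-, P2 eYFP+, P60 eYFP- and P60 eYFP+ pools (the order used for all sets of 4 values below). Mir17hg, the host gene of the miR-17 cluster that drives cell growth, begins in an island of 339 CpGs at 1.49%, 1.61%, 2.07% and 2.26%. Gm40302, an lncRNA gene whose nearest protein-coding gene is Dhx15, had 309 CpGs at 1.89%, 2.41%, 3.47% and 3.76%, and Foxq1, a forkhead factor gene, had 277 CpGs at 1.31%, 1.39%, 1.88% and 1.81%. All 12 libraries called an HMR in each of these 4 islands, and all their levels were low at both ages. In total 994 members, 74.7%, had an HMR in all 12 libraries.

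**Figure D1:**
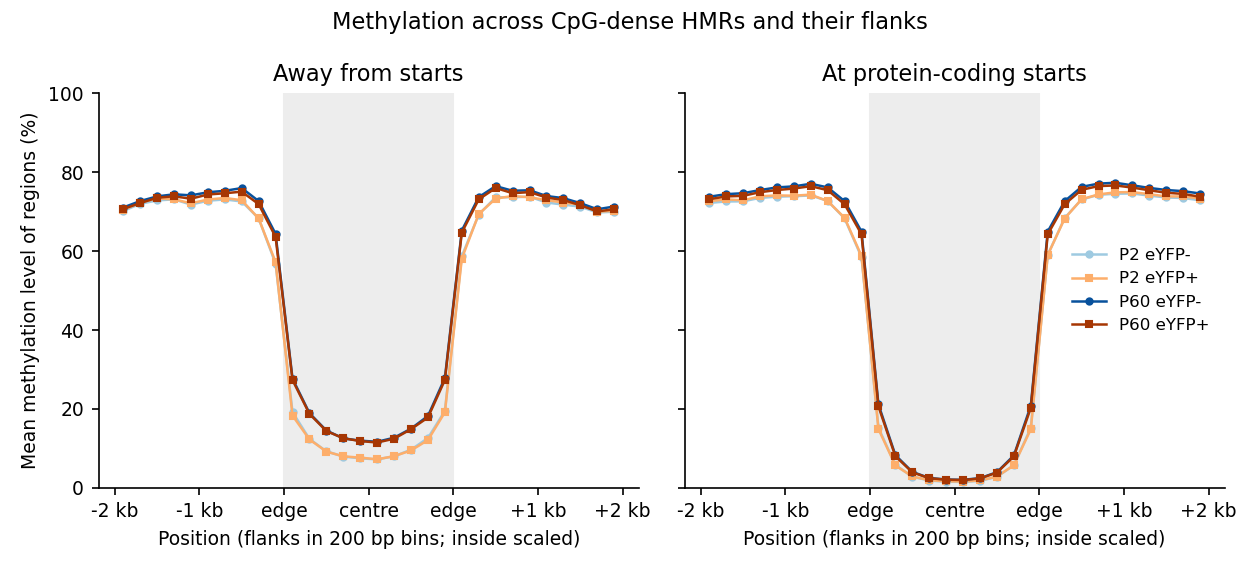
Mean methylation level (%) of the members of ordinary depth (left) and of CpG-dense HMRs at protein-coding starts (right), in 10 equal parts inside the region (grey) and in 200 bp bins over 2 kb on either side. Lines join the means over regions in the 4 pools, and both P60 lines lie above both P2 lines inside the members, with 11.5 to 11.7% against 7.22 to 7.24% just past the centre.

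The profile across the members was a bowl rather than a flat floor. Averaged over the members of ordinary depth, the first of the 10 parts stood at 19.2% and 18.3% in the P2 pools and at 27.7% and 27.3% in the P60 pools, and the part just past the centre at 7.22%, 7.24%, 11.7% and 11.5%. The P60 minus P2 difference was thus larger at the first edge (8.74 points) than past the centre (4.36 points), and both were larger than at 0.297 to 0.590 points in the bins beyond 1.4 kb before the edge. At protein-coding starts the same difference was 5.82 points in the first part and 0.461 points past the centre. The edges are the outer limits of the merged HMRs of 4 pools, so the first and last parts can lie outside the HMRs of some pools. The shape is therefore in part set by how the regions were drawn. These are averages over regions and were not tested.

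Methylation rose with age in many more members than it fell. In two-sided Fisher's exact tests on pooled reads, adjusted by Benjamini-Hochberg over all 82492 merged HMRs with at least 50 reads in each pool and with a difference of at least 10 percentage points required, 244 of the 1331 members (18.3%) were called higher at P60 in eYFP- cells and 249 (18.7%) in eYFP+ cells. Over all HMRs the shares were 28.6% in eYFP- and 27.2% in eYFP+ cells, so the members fell below the background. They lay well above the islands at protein-coding starts, with 2.55% and 2.42%, and below the sparse distal HMRs, with 34.0% and 32.0%. The start islands were also longer (median 1692 bp, against 670 bp in the members), and length was not matched. A fall was called in 13 members in eYFP- cells (0.977%, background 2.84%) and in 10 in eYFP+ cells (0.751%, background 3.68%). Both subtypes shared 209 of the rises (15.7% of members, 23.4% of all HMRs) and 5 of the falls (0.376% of members, 1.71% of all HMRs), and in 63 of the 75 members called higher in a single subtype the other one was higher too. The median stage difference over members was 1.92 points in eYFP- and 1.79 points in eYFP+ cells, against 3.03 and 2.53 points over all HMRs. These tests compare pools and not mice.

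**Figure D2:**
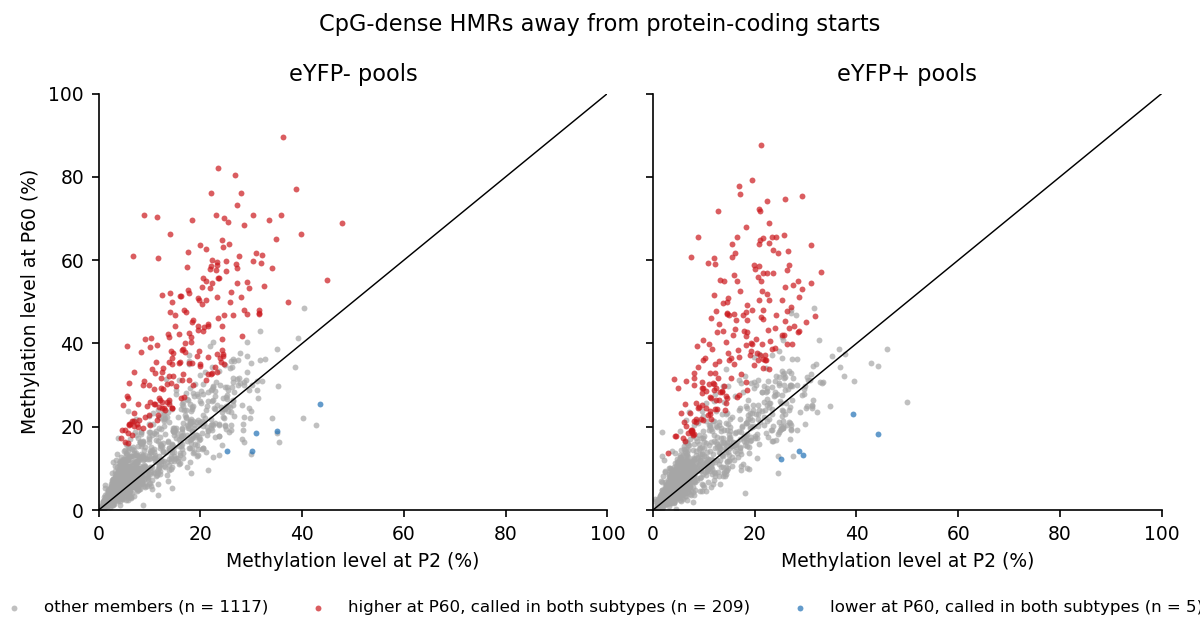
Methylation level of each member at P2 (x axis, %) and P60 (y axis, %) in the eYFP- pools (left) and the eYFP+ pools (right), with the line of equal levels. The 209 members called higher in both subtypes (red) reach 89.5% at P60, while only 5 were called lower in both (blue).

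Because the members were chosen on both ages, age was also read from regions chosen on one age alone. Regions chosen as low at one age are favoured to be higher at the other, and the pools that chose them enter the test. Rises of P2-chosen and falls of P60-chosen regions are therefore a description. The same rule applied to the P2 pools gave 1344 regions, of which 245 and 249 were called higher at P60 in eYFP- and eYFP+ cells. Applied to the P60 pools it gave 1486 regions, and of the 1456 of these with enough reads at P2, 14 and 11 were called lower at P60 and 70 and 62 higher. Among all HMRs of the P2 pools 31.1% and 29.6% were called higher at P60. Among all HMRs of the P60 pools 5.32% and 4.34% were called higher and 3.70% and 4.82% lower, so the rises of the P60-chosen islands were near their background.

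The 6 members with the largest rises stood between 6.80% and 36.3% at P2 and between 60.7% and 89.5% at P60. A 219 bp member with 11 CpGs in an intron of Notch1, which encodes a receptor of lateral inhibition, stood at 8.84% (5.73 to 13.4%), 12.8% (9.53 to 17.1%), 70.8% (67.4 to 74.0%) and 71.7% (68.1 to 75.1%). An intron of Cux2, a homeodomain factor gene, held a member at 36.3%, 21.2%, 89.5% and 87.7%, and an intron of Wwox, an oxidoreductase gene, one at 23.5%, 16.8%, 82.2% and 77.8%. The region 42241 bp from Actrt2, a gene of an actin-related protein, stood at 11.4%, 8.80%, 70.3% and 65.4%. The one 98861 bp from Sdk2, which encodes an adhesion molecule of synapses, stood at 26.8%, 19.5%, 80.3% and 79.2%. No P60 library called an HMR in any of these 5 regions, and at P2 all libraries did except both eYFP- libraries at Cux2 and 1 of them at Wwox. These 5 regions had 11 to 21 CpGs and between 5.02 and 5.62 CpGs per 100 bp, close to the lower limit of density.

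The last of these 6 was a longer island. It lies in an lncRNA gene 7885 bp from the start of Ankrd60, a gene of an ankyrin-repeat protein, spans 1614 bp and holds 123 CpGs. Its level was 6.80% (5.88 to 7.85%, 2529 reads) and 7.54% (6.57 to 8.65%, 2479 reads) at P2, and 61.0% (59.8 to 62.3%, 5650 reads) and 60.7% (59.5 to 61.9%, 6324 reads) at P60. All 4 P2 libraries called an HMR there and none of the 8 P60 libraries did. All 123 CpGs were higher at P60, by a median of 56.2 points and at least 12.1 points, and 117 of them by at least 20 points. The 20 CpGs measured beside it had medians of 62.0% and 72.8% at P2 and of 83.4% and 82.4% at P60.

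**Figure D3:**
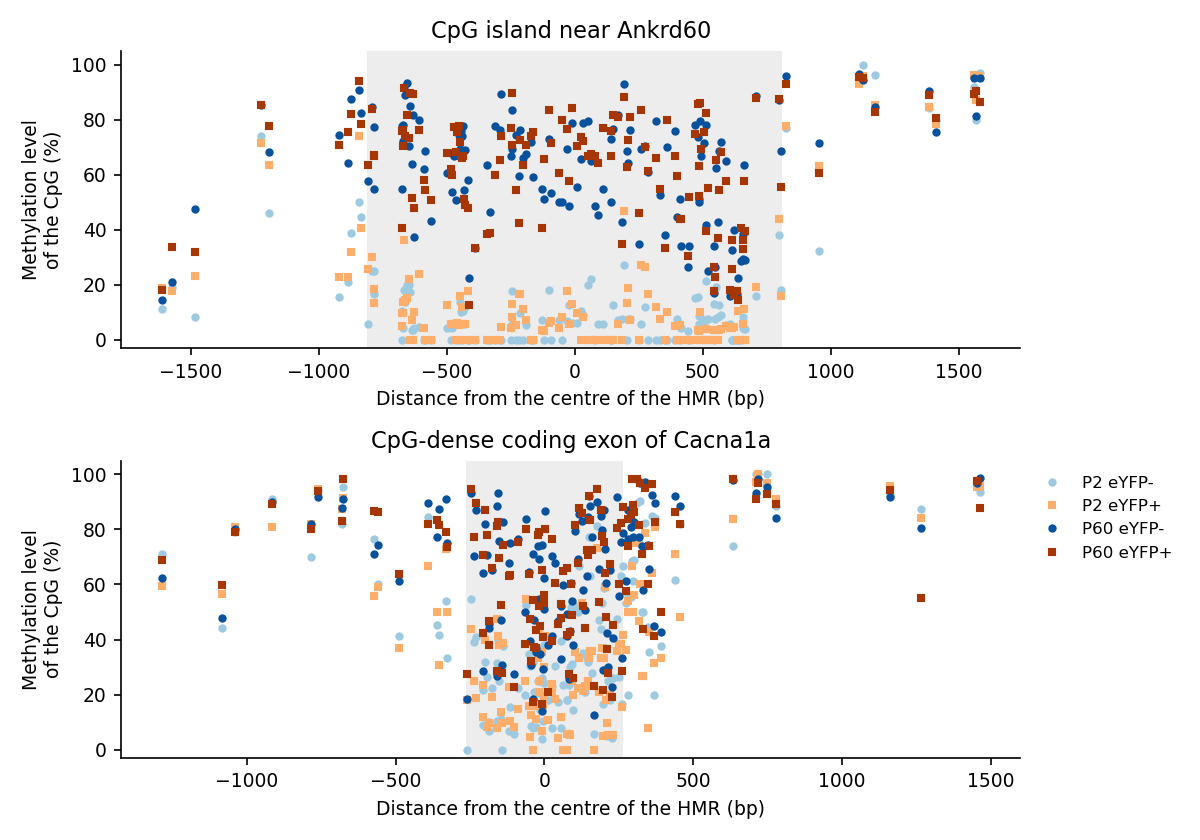
Methylation level (%) of single CpGs with at least 5 reads in every pool, by distance (bp) from the centre of the HMR, for the island near Ankrd60 (top) and the coding exon of Cacna1a (bottom), with the HMR in grey. All 123 and all 86 CpGs inside these regions are higher at P60 than at P2, taking the mean of the subtypes.

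A second dense element lay in coding sequence. Cacna1a encodes the pore-forming subunit of the P/Q-type calcium channel, which takes part in insulin exocytosis. A 521 bp member in its coding sequence holds 86 CpGs, 16.5 per 100 bp, and stood at 27.2% (25.3 to 29.2%), 21.7% (19.9 to 23.7%), 58.2% (56.9 to 59.5%) and 56.8% (55.4 to 58.2%). All 86 CpGs were higher at P60, by a median of 32.3 points, and 72 of them by at least 20 points. A second member of the gene, in an intron, was at 13.4%, 14.4%, 30.3% and 27.4%. All 4 P2 libraries and no P60 library had an HMR in the coding member.

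Other rising islands of at least 1 kb, named after their values were seen, were mostly in genes. There were 14 in all, among them exons of Speg (26.4%, 18.2%, 46.9% and 39.7%), Myorg (14.6%, 12.1%, 32.1% and 32.8%) and Lmtk3 (12.5%, 7.20%, 24.5% and 23.4%), which encode a muscle kinase, a glycosidase and a neuronal kinase. A coding exon of Srebf2, the regulator of cholesterol synthesis, stood at 16.6%, 12.2%, 32.7% and 35.1%, and the 3' UTR of Selenom, a selenoprotein gene, at 11.3%, 8.63%, 35.6% and 39.4%. Islands near Id3, an inhibitor of basic helix-loop-helix factors, and Nrarp, a Notch target, rose by means of 11.5 and 11.4 points. Apart from the island near Ankrd60, all 14 stayed under 50% at P60. Several members of one gene could also rise together. All 3 members in introns of Cux2 were called higher in both subtypes, by means of 59.9, 46.9 and 26.4 points. Near Skida1 the island of 194 CpGs stayed between 2.11% and 3.46%, whereas its neighbours, with 56 and 26 CpGs, rose by 28.3 and 36.3 points. Each of these is a rise called in both subtypes unless its levels are given as staying.

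The share of rises was described by length. Of the 417 members under 400 bp, 127 (30.5%) were called higher in both subtypes, of the 518 from 400 bp to under 1 kb, 68 (13.1%), and of the 396 of at least 1 kb, 14 (3.54%). Their median levels at P2 also differed, with 17.8% in either pool for the shortest and 3.55% and 3.87% for the longest. Of the islands at protein-coding starts, with a median length of 1692 bp, 2.15% were called higher in both subtypes. That share is close to the 3.54% of the members of at least 1 kb. By place, the share called higher in both was 26.2% in introns and 26.2% in 3' UTRs, 18.4% in coding exons, 12.3% between genes and 10.4% in lncRNA genes, against 23.4% over all HMRs. It was 9.03% where a noncoding start lay within 2 kb and 21.1% where none did. Of the 121 members with an HMR in both P2 pools and in no P60 pool, 101 were called higher in both subtypes, with medians of 23.0%, 21.0%, 47.6% and 46.5%, as their choice would give. Only 2 members had an HMR in both P60 pools alone. These shares describe members that differ in length as well, and were not tested.

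The HMRs of single libraries followed the pools. Of the 209 members called higher in both subtypes, P2 libraries held an HMR in 87.1% to 97.6% and P60 libraries in 32.5% to 37.8%, with no overlap. Of the other members, P2 libraries held 96.6% to 98.1% and P60 libraries 92.3% to 94.4%. In all 4 P2 libraries and in no P60 library an HMR was found for 73 members, and in all 8 P60 libraries and in no P2 library for none. The share over all HMRs was not counted for these patterns. P60 libraries listed fewer autosomal HMRs in total, 37067 to 48399 against 55619 to 59870 at P2. Of the sparse distal regions, P2 libraries held 53.4% to 60.3% and P60 libraries 25.9% to 43.1%. These libraries are part of the pools that chose and tested the members, so their HMRs are a description.

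**Figure D4:**
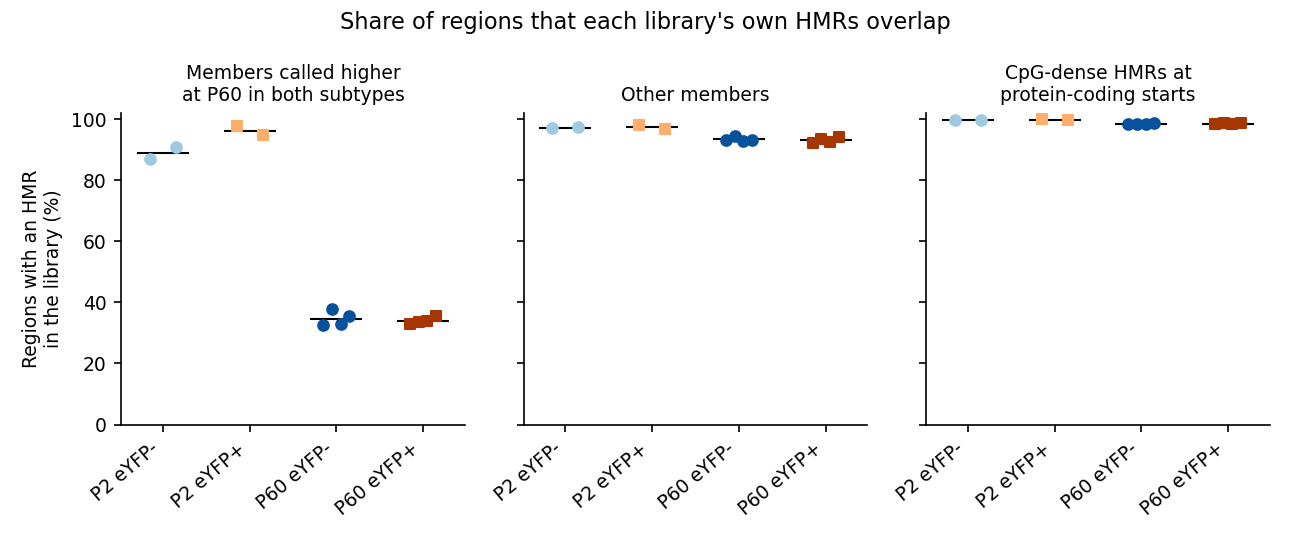
Percent of regions that overlap an HMR of each single library, for the 209 members called higher at P60 in both subtypes, the other members and CpG-dense HMRs at protein-coding starts. Points are libraries (2 for each subtype at P2, 4 at P60) and lines are group means, with the P60 libraries between 32.5% and 37.8% on the left and between 98.4% and 98.6% on the right.

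Members that lost methylation were few and small in change. The largest fall called in both subtypes was in an intergenic region 8005 bp from Zcchc14, a zinc finger gene, at 43.5% (38.7 to 48.5%), 44.2% (39.5 to 49.0%), 25.4% (23.1 to 27.8%) and 18.4% (16.1 to 20.8%). No P2 library had an HMR there, while 2 of 4 P60 eYFP- and all 4 P60 eYFP+ libraries did. The others were near Yeats4, which encodes a reader of acetylated histones (35.1%, 39.3%, 18.9% and 23.1%), near Ppm1l, a phosphatase gene (30.1%, 25.2%, 14.2% and 12.2%), near Usp10, a deubiquitinase gene (25.2%, 29.6%, 14.2% and 13.1%), and in an intron of Tspan15, a tetraspanin gene (31.0%, 28.7%, 18.4% and 14.2%). All 5 had been partly methylated at P2, and 4 of the 5 were between 251 and 303 bp long. The exception near Usp10 spans 1159 bp with 75 CpGs but had 42.7 reads per CpG over the 4 pools, against a median of 160.5 over the members.

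Differences between the subtypes at one age were small. Over the members their median size was 1.22 points at P2 and 0.877 points at P60, against 2.04 and 1.59 points over all HMRs and 2.83 points for age in eYFP- members. At P2, 14 members (1.05%) were called lower in eYFP- cells, against a background of 0.79%, and 18 (1.35%) lower in eYFP+ cells, against 0.422%. At P60, 6 (0.451%) were called lower in eYFP- cells, against 0.318%, and 3 (0.225%) lower in eYFP+ cells, against 0.343%. None was called at both ages. Of the 32 called at P2, 26 were under 400 bp. With the middle 50% of each region in place of the whole, the P2 counts fell to 8 and 8 and the P60 count lower in eYFP- cells to 1.

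At P2 the members lower in eYFP- cells included 1 that is 324842 bp from Cdh26, a cadherin gene, with 14 CpGs. It stood at 17.4% (13.2 to 22.5%) in eYFP- and 44.3% (38.8 to 49.97%) in eYFP+ cells at P2, and at 26.7% and 34.6% at P60 (adjusted p = 3.63e-08 at P2, Fisher's exact test with Benjamini-Hochberg adjustment). Both P2 eYFP- libraries and 3 of 4 P60 eYFP- libraries had an HMR there, and none of the 6 eYFP+ libraries did. The region was named for its P2 difference, and these libraries are part of the pools that chose it. Its p-value and library HMRs are therefore a description. A region 28570 bp from Cxcr4, a chemokine receptor gene, stood at 17.8% and 37.6% at P2 and at 35.9% and 32.1% at P60, so the order did not hold. The start of H19, an imprinted RNA gene named after its values were seen, was at 23.7% (20.4 to 27.4%) and 39.4% (35.1 to 44.0%) at P2 and at 33.4% and 30.9% at P60. Members lower in eYFP+ cells at P2 lay near Rybp, which encodes a Polycomb subunit (47.8% and 25.8%), in an lncRNA gene near Fbrsl1 (44.8% and 25.4%) and in an intron of Zmiz1, a transcriptional coactivator gene (33.5% and 15.4%). At all 3 both P60 levels exceeded both P2 levels, with 68.9% and 65.9%, 55.3% and 50.4%, and 69.7% and 63.9%. Of the 32 members called at P2, 11 were also called higher at P60 in both subtypes. Among all members 15.7% were, among members under 400 bp 30.5%, and among all HMRs 23.4%. At P60, 10 of the 14 and 13 of the 18 kept their direction, and none of this was tested.

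At P60, 6 members had the largest subtype differences, 3 in each direction. A region in an intron of Ankrd11, a chromatin regulator gene, stood at 20.4% (17.0 to 24.3%) in eYFP- and 46.8% (42.4 to 51.3%) in eYFP+ cells, after 26.03% and 28.04% at P2, and a single P60 library of 8 had an HMR there. Near Suds3, a gene of a Sin3 deacetylase subunit, the levels were 20.4% and 35.3% after 42.7% and 42.9%. The Samsn1 and H2-Q10 members had 72 and 98, and 262 and 189 reads in the P60 pools, with levels of 9.72% and 38.8%, and of 23.7% and 7.41%. A coding exon of Hs3st3a1, a heparan sulfate sulfotransferase gene, stood at 39.4% (35.3 to 43.7%) and 25.1% (21.5 to 29.0%), the opposite order of its P2 levels of 22.0% and 34.8%. In an intron of Igsf21 both subtypes rose, from 18.4% and 16.0% to 69.6% and 56.4%, and the eYFP+ level ended lower.

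The share of islands with an HMR in single libraries gave a comparison of the subtypes that can be tested over libraries. Of the 1344 regions chosen on the P2 pools alone, P60 eYFP- libraries had an HMR in 84.6% ± 0.877 (SD, n = 4) and eYFP+ libraries in 84.4% ± 0.900 (SD, n = 4). The values were 84.5%, 85.9%, 83.8% and 84.5% in eYFP- replicates 1 to 4, and 83.4%, 84.6%, 83.9% and 85.5% in eYFP+ replicates 1 to 4. The groups overlapped, and the difference of -0.279 points was smaller than the spread (two-sided exact permutation test, p = 0.657, smallest possible p = 0.0286). It was -1.15 points in replicates 1 and 2 and 0.595 points in replicates 3 and 4, so the direction differed between these sets of replicates. Of the 1486 regions chosen on the P60 pools, P2 libraries had an HMR in 98.5% and 98.8% (eYFP-) and in 99.0% and 98.1% (eYFP+), and the groups overlapped here too. With 2 libraries for each subtype the exact test cannot go below p = 0.333.

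**Figure D5:**
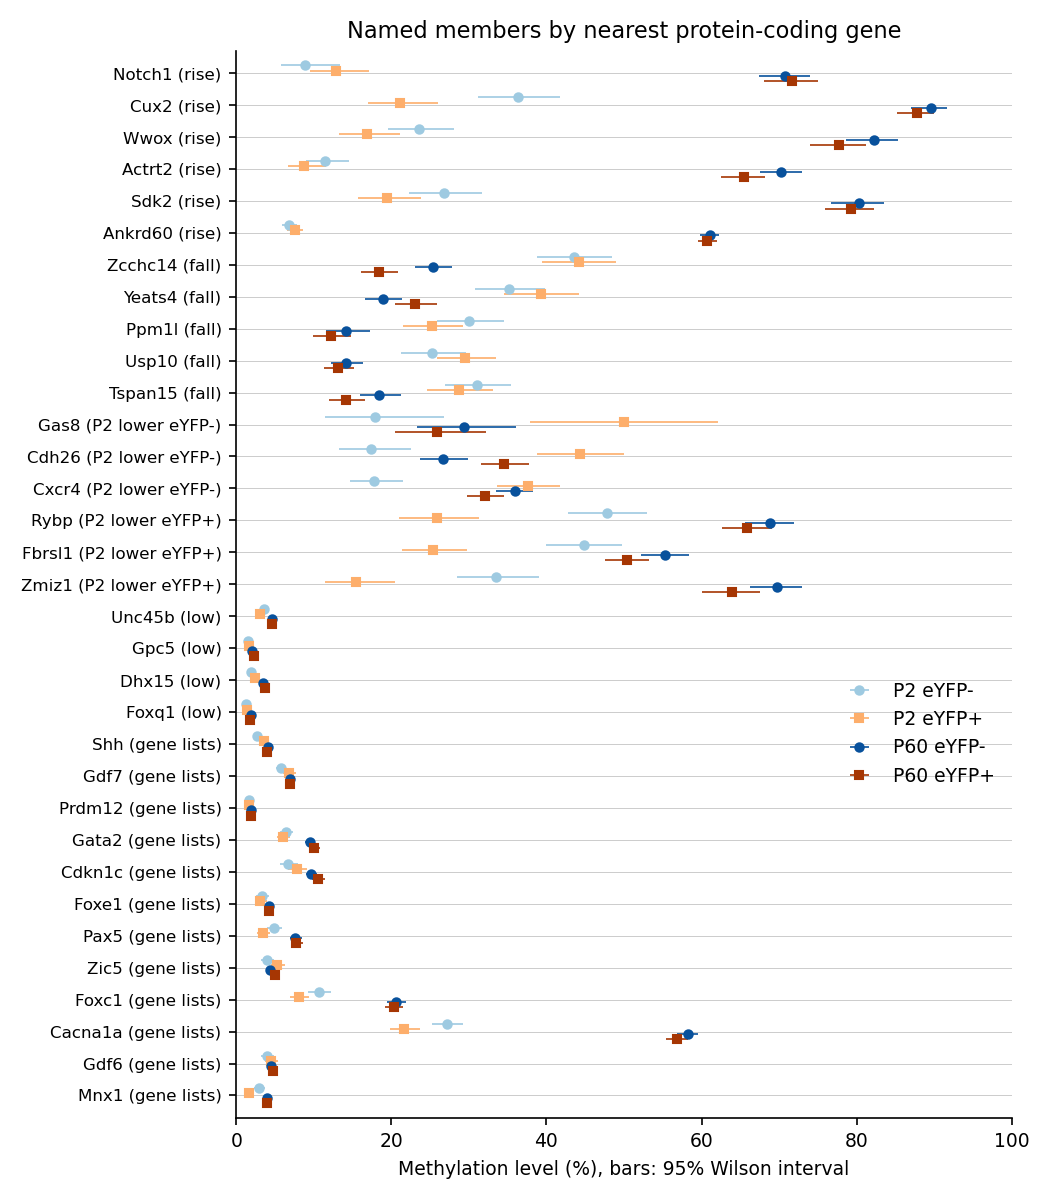
Methylation levels (%) of named members in the 4 pools, by nearest protein-coding gene, with 95% Wilson intervals of pooled reads and the reason for naming in parentheses. The members of the rise group lie at 60.7% or more in both P60 pools, and the low islands stay under 5% in all pools.

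Gene lists were set against the neighbours of the members. The nearest protein-coding gene within 50 kb was known for 1021 members and gave 917 of 20604 protein-coding genes (4.45%). Of 119 regulators of other lineages 18 (15.1%) had a member, of 80 signalling genes 15 (18.8%), of 28 β-cell factors 7, and of 30 imprinted genes 4 (13.3%). Of 28 genes of secretion and ion channels 1 (Cacna1a, with 2 members that both rose), of 59 clustered protocadherins 1 (1.69%), and of 8 DNA methylation enzymes 0 had one. No member near a listed gene was called lower in both subtypes. These lists were chosen with earlier results known, gene length and isolation were not matched, and the shares were not tested.

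Apart from Barhl1, the listed genes given here were those whose members held the most CpGs. Most of these islands next to developmental genes were low at both ages. Members of at least 1 kb had medians of 3.55%, 3.87%, 4.91% and 4.99%. Over all 19 members near regulators of other lineages the medians were 5.46%, 5.30%, 9.47% and 10.1%. Over the 18 near signalling genes they were 4.04%, 4.83%, 6.015% and 6.51%, and over all members 7.26%, 7.35%, 10.2% and 10.2%. In an intron of Shh, the morphogen gene, 234 CpGs stood at 2.73%, 3.54%, 4.05% and 3.95%. A member in a coding exon of Ldah near Gdf7, a BMP-family ligand gene, was at 5.73%, 6.85%, 6.90% and 6.92%, and one in a coding exon of Gdf6, another such ligand gene, between 3.92% and 4.68%. The 3' UTR of Prdm12, a regulator of pain neurons, was between 1.61% and 1.96%, and the islands near Foxe1, a thyroid factor gene, and Zic5, a neural factor gene, stayed between 3.10% and 5.30%. Near Gata2, a blood and neural factor gene, the levels were 6.43%, 6.08%, 9.47% and 10.1%, in an intron of the B-cell gene Pax5 4.89%, 3.42%, 7.64% and 7.76%, and near the imprinted cell-cycle inhibitor gene Cdkn1c 6.71%, 7.83%, 9.70% and 10.6%. The 3' UTR of Foxc1, a mesoderm factor gene, went from 10.7% and 8.12% to 20.6% and 20.4%, with the call of a rise in eYFP+ cells only, since the eYFP- difference of 9.96 points missed the size limit. In Barhl1, a neuronal homeobox gene, a coding exon rose from 8.79% and 8.10% to 30.1% and 31.6%, and the 3' UTR member from 8.99% and 10.4% to 31.1% and 28.6%. Rises in both subtypes were called in 4 of the 19 members near regulators of other lineages and in 3 of the 18 near signalling genes, against 171 of the 1021 members within 50 kb of any protein-coding gene and 23.4% of all HMRs.

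β-cell factor genes had 7 members, and 3 of them were called higher in both subtypes (15.7% of all members and 23.4% of all HMRs were). The member 7618 bp from Glis3, a factor of insulin transcription, went from 22.3% and 20.9% to 60% and 63.8%. The one 3323 bp from Neurod1, the endocrine factor gene, went from 18.6% and 20.3% to 45.7% and 41.1%, and the one 11626 bp from Pdx1, the pancreatic master regulator gene, from 19.9% and 26.3% to 34.5% and 39.9%. All 3 lie in lncRNA genes and are short, with 12 to 21 CpGs. The others were near Mnx1, which stayed between 1.63% and 3.96%, Mafa (4.17%, 3.14%, 10.7% and 10.1%), St18 (2.43%, 5.15%, 4.58% and 5.49%) and Tcf7l2 (8.19%, 11.6%, 16.4% and 19.01%). Except for Mnx1, these genes were named after their values were seen.

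Starts of noncoding genes held many of the low members. Members whose nearest start within 2 kb belonged to an lncRNA had medians of 4.88%, 5.18%, 7.32% and 7.14%. Of these 445, 44 (9.89%) were called higher in both subtypes, against 15.7% of all members and 23.4% of all HMRs. Their median length was 900 bp, against 670 bp over all members. Dleu2, an lncRNA gene, had 2 such islands, with 194 and 205 CpGs, at 2.81%, 4.12%, 1.87% and 1.80%, and at 1.61%, 1.78%, 2.44% and 2.21%. Meg3, a maternally expressed imprinted RNA gene, had a 253 bp member 712 bp from a start, at 27.6%, 26.9%, 31.8% and 29.7%.

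Some members had unusual read depth, whose cause was not tested. Over the 4 pools together, 15 members had more than 10 times the median depth, between 1699 and 10590 reads per CpG, and held 17.7% of all reads on members. Of these 15, 11 shared stretches of 25 bases with at least another one, in 3 families. The 4 deepest, near Axin2, Cdk8, Gm8797 and Filip1l, had nearly equal levels of 22.1 to 23.7% (P2 eYFP-), 25.1 to 26.9% (P2 eYFP+), 19.3 to 20.6% (P60 eYFP-) and 19.4 to 20.9% (P60 eYFP+). In 14 of the 15 both subtypes were lower at P60, against the direction of most members, and none was called in both. Another 24 members had less than 0.1 times the median depth, 11 of them in a cluster of 5S ribosomal RNA genes on chromosome 8. There the member 36062 bp from Gas8 stood at 17.9% (11.5 to 26.8%) and 50% (37.9 to 62.1%) at P2 with 95 and 62 reads. How reads of repeated sequence were placed is not given in the sources used here. Without the 39 members of unusual depth the counts called higher were 242 and 248 of 1292.

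Short sequence motifs were counted in the members and in the other classes. In the central 200 bp, read on both strands, GGGCGG (SP/KLF) was present in 41.6% of members, 53.8% of dense regions at starts and 3.07% of sparse distal regions. The CTCF consensus was found in 40 members (3.01%), in 0.974% at starts and in 3.11% of sparse regions. CAGATGG (NEUROD1) was found in 5.26% of members, 1.75% at starts and 7.11% of sparse regions, and TGTTTAC (FOXA) in 1.43%, 0.817% and 7.08%. TGCCGC, the ZFP57 hexamer, was in 20.4% of members, 21.9% at starts and 2.02% of sparse regions, GCGCATGC (NRF1) in 2.03%, 1.30% and 0.128%, and TGACGTCA (CRE), CCGGAAGT (ETS) and GCGGGAAA (E2F) each in under 1% of members. The REST consensus was in none of the 1331. The SP/KLF, ZFP57, NRF1, CRE, ETS and E2F motifs each hold a CpG, and the classes were set by CpG density. Their gaps to the sparse regions are therefore in part built into the rule and are no finding about the members. A match describes letters and no binding.

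Single regions mark the limits of the rule on either side. The member nearest the density limit, 3823 bp from Catip, stood at 7.81%, 6.92%, 8.85% and 11.7%, and the region just outside it, near Grb7, at 3.46%, 3.98%, 4.96% and 5.88%. Just beyond 2 kb, at 2017 bp from Mapt, the levels were 6.10%, 1.91%, 5.70% and 4.41%, and at 1996 bp from Ppp1r16a 19.2%, 16.8%, 44.5% and 45.2%. A region of 199 bp near Sntg1, outside by length, was at 21.8%, 13.2%, 51.6% and 41.6%, and the member of 200 bp near Sdk2 at 14.2%, 18.4%, 9.75% and 10.1%.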

How the data were processed

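T-WGBS (tagmentation-based whole-genome bisulfite sequencing) libraries were trimmed by the authors with Trim Galore 0.6.6 (cutadapt 1.16), mapped to mm39 with abismal and processed with MethPipe, whose version is not given in the sources used here. The deposited tables hold counts of methylated and unmethylated reads per CpG and pool, and the deposited HMR lists hold positions per pool and per library. The authors' lists of differing regions were not used. The first pool of each table was taken as eYFP- and the second as eYFP+ from the study's numbers of regions in each direction. At P2, eYFP- libraries held 23.1% and 29.2% of the HMRs found in the first pool only, and eYFP+ libraries 5.72% and 6.38%. At P60 the ranges were 8.73% to 21.0% and 5.08% to 6.54%.

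Pooled HMRs were merged where they overlapped by at least 1 bp, and levels are methylated reads over all reads on the CpGs of a region. GENCODE vM39 on GRCm39 gave starts and places. Members and gene lists were chosen with earlier results of these data known. Named members were the 6 largest rises and falls called in both subtypes, the 3 largest subtype differences per age and direction, the 4 with the most CpGs among those under 5%, the 12 genes of the lists with the most CpGs, and those at each limit. None met a further rule for levels of 35 to 65% in every pool. Deepest members were added after their values were seen. Fisher's exact test was tested on simulated reads. P60 replicate numbers were taken as pairs, since same-numbered libraries deviated together over 65638 HMRs (correlations 0.147, 0.197, 0.296 and 0.135). Same-numbered libraries also share sex label and file name prefix, with odd-numbered replicates labelled female and even-numbered ones male. Differently numbered libraries were not compared, so shared mice do not follow from these correlations. Tools were Python 3.11.15, NumPy 2.4.6, pandas 2.3.3, SciPy 1.17.1, Numba 0.67.0 and Matplotlib 3.10.9.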

Additional observations from a re-analysis of the deposited data

How the results depend on the processing

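Read counts were used per pool, so call counts have no value without a library or with a paired fit. Of 112 alternatives, 67 were classed as unchanged, including all with at least 200 reads in each pool, 40 as moved and 5 as reversed. For the subtype differences in library shares, unchanged does not mean of equal size. In P2-chosen regions, the -1.15 points of P60 replicates 1 and 2 counted as unchanged against -0.279 points. The number of members fell from 1331 to 733 over 2 kb from a start of any gene type and to 722 at 6 CpGs per 100 bp. Requiring 20 points gave 122 (eYFP-) and 119 (eYFP+) rises, 1 and 2 falls, 2 and 1 members lower in eYFP- and eYFP+ cells at P2, and 2 and 0 at P60. Fisher's exact test with no size limit gave 643 and 610 rises, 110 and 126 falls, 50 and 46 at P2, and 51 and 48 at P60. Members with an HMR in all 4 pools gave 104 and 103 rises, 7 falls in eYFP- cells, 7 and 3 at P2, and 1 and 1 at P60. The middle 50% of each region gave 8 and 8 at P2 and 1 lower in eYFP- cells at P60, and lowered the median levels to 3.77%, 3.97%, 5.47% and 5.28% in the pools. Over 2 kb from any start these medians were 9.97%, 9.64%, 13.7% and 13.6%. The cause of these shifts was not tested, beyond the fewer regions that the stricter limits leave. Shares over all HMRs at these settings were not counted, so these call counts have no background beside them.

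Regions chosen on the P60 pools only, an alternative chosen after seeing the data, gave 70 and 62 rises and 4 lower in eYFP+ cells at P2, and the P2 pools only gave 6 falls in eYFP+ cells. Leaving out members of unusual depth, likewise added, changed no count by over 1.5 times.

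The subtype difference in open P2-chosen regions ranged from -0.657 to 0.130 points with each P60 library left out, turning positive without eYFP- replicate 2 (0.130) or eYFP+ replicate 1 (0.0372), and was 0.595 points in replicates 3 and 4. For P60-chosen regions it was -0.0673 points, and between -0.505 and 0.370 with each P2 library left out, turning positive without eYFP- replicate 2 (0.101) or eYFP+ replicate 2 (0.370). With the replicate number as a block the P60 difference stayed -0.279 points (exact sign-change test, p = 0.75, smallest possible 0.125), and the P2 one -0.0673 points (p = 1.0, smallest possible 0.5). The block changed no call. At P2 the pairs rest on replicate numbers alone. The X chromosomes of the P2 eYFP- libraries go against their sex labels, so each P2 pair may join libraries of different sex.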
